A study of Rattus norvegicus with 32 samples.

Results

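For 10 genes of clathrin-mediated endocytosis, RNA levels were followed in hippocampal neurons of injured rats. They are the clathrin chains Clta, Cltb and Cltc, the adaptor subunits Ap2a1, Ap2b1 and Ap1g1, the scaffold Eps15, the membrane-curving proteins Amph and Bin1, and the scission enzyme Dnm1. Members were all probes whose only symbol in the platform's probe-to-gene table was one of these names, which gave 16 of 33849 probes. A further probe was assigned to both Ap2a1 and Ap2a2 and was left out. Probes had to be detected above background on the 4 arrays of 1 group or more, which 11 of the 16 did, for 9 of the genes, as did 17635 probes in all. Adult male Sprague-Dawley rats received fluid percussion traumatic brain injury (TBI), a pressure pulse on the exposed dura, or sham surgery. Before the injury, these rats were given saline or 1 of 2 drugs. Metyrapone (MT, 100 mg/kg) inhibits glucocorticoid synthesis. Carbenoxolone (CB, 30 mg/kg) inhibits 11β-hydroxysteroid dehydrogenase, an enzyme that interconverts active and inactive glucocorticoids. Both drugs were given to rats with TBI only. RNA was taken at 4 h and 24 h, giving the 8 groups sham, TBI, TBI+CB and TBI+MT at each time. The labels call the sham rats of 4 h untreated, whereas the methods describe saline. Neurons of the CA3 layer that Fluoro-Jade, a stain for degenerating cells, had not marked were cut out by laser and pooled over several rats, so injured cells that had already degenerated are outside the sample. Each group had 2 pools and each pool 2 arrays, so n = 2 pools throughout. The methods describe the pools as biological replicates, each pooled from several rats. The p-values measure the spread between these pools.

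Clathrin-mediated endocytosis brings receptors and recycled synaptic vesicle membrane into the cell. Heavy chains, encoded by Cltc, and light chains, encoded by Clta and Cltb, form branched units that assemble into a cage on the membrane. Adaptor complexes join the cage to cargo: AP-2, with its large subunits encoded by Ap2a1 and Ap2b1, works at the plasma membrane, and AP-1, with the gamma subunit encoded by Ap1g1, at the trans-Golgi network and endosomes. Eps15 binds AP-2 at forming pits. Amphiphysin (Amph) and its relative Bin1 bend the neck of the pit and recruit dynamin, whose neuronal form is encoded by Dnm1 and cuts the vesicle free. Neurons use the route heavily at the presynaptic terminal.

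The sequence upstream of Ap2a1 and Ap1g1 is shown because these genes had the lowest log2 changes of the 9 with either drug against TBI at 4 h, and because the transcript start used for both lies at the start of the annotated gene. Both genes had passed the detection filter through sham and TBI of 4 h alone, which favours such a change. Their rank served only to choose what to show. Each line gives the 250 bases before the start, 5′ to 3′ on the strand of the gene, from RefSeq on build GRCr8. Ap2a1 lies on the minus strand (chr1:104550656-104550905) and Ap1g1 on the plus strand (chr19:54653851-54654100).
Ap2a1: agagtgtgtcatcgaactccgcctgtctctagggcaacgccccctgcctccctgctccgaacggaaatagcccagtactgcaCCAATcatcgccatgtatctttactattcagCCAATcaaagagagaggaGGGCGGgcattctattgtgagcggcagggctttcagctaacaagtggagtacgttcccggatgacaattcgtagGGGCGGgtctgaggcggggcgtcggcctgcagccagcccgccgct
Ap1g1: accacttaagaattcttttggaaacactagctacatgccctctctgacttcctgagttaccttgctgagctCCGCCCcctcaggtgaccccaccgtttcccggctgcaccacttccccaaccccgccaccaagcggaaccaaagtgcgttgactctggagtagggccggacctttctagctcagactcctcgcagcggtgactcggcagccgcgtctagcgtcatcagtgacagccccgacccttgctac
Capitals mark letters that match, on either strand, a short motif. GGGCGG is the GC box, which Sp1 factors bind. CCAAT is the core that nuclear factor Y reads. None of the matches overlap. Ap2a1 held 2 GC boxes and 2 copies of the nuclear factor Y core, and Ap1g1 held 1 GC box. Over 33469 upstream windows of the same length, 30.5% held a GC box and 34.0% that core. The cAMP response element TGACGTCA, present in 1.59% of windows, was matched in the windows of Cltb and Ap2b1 and not of the other 8 genes. The full palindromic glucocorticoid response element, present in 0.012% of windows, was matched in the window of none of the 10. Only for Ap2a1 and Ap1g1 did the transcript start used lie at the start of the annotated gene. It lay 299 bases inside the gene for Cltb, 3798 for Ap2b1 and up to 19174, for Clta. The windows of Cltb and Ap2b1 thus lie within the annotated genes. A match is a run of letters in the window and not a measured binding site.

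Levels are given as multiples of the median intensity of the array, and the level of a pool is the geometric mean of its duplicate arrays. The share of probes above background ran from 26.1 to 65.9% by array, and by pool it was lowest in TBI+MT 24 h replicate 1 (27.4%) and TBI+CB 24 h replicate 2 (30.1%). The excitatory neuron markers Slc17a7, Camk2a and Grik4 were above background on all 32 arrays, while Neurod2 was so on 4. Astrocyte markers were also present, with 6 of 7 above background in TBI at 4 h and a summed level of 226 to 505, against 144 to 256 in sham, 208 to 221 with CB and 100 to 179 with MT. The sum of the endothelium and pericyte markers was 44.7 to 49.6 in TBI at 4 h, 41.2 to 82.9 in sham, 29.9 to 37.2 with CB and 23.7 to 24.5 with MT, while that of the pyramidal neuron markers was 270 to 306 in TBI, 250 to 297 in sham, 233 to 275 with CB and 248 to 264 with MT. Summed astrocyte, endothelial and pericyte markers were thus lower with both drugs than in TBI at 4 h, as most clathrin genes were. Microglial markers were lower too, at 20.9 to 30.6 with CB and 22.8 to 25.1 with MT. Oligodendrocyte sums were 159 to 235 in TBI, 158 to 207 with CB and 120 to 146 with MT. Interneuron sums were 93.3 to 130, 90.9 to 117 and 73.3 to 77.1. Pyramidal sums were lower with MT as well, so the direction was not particular to 1 of these lists. Bright genes weigh most in such sums, with levels of 73.8 to 251 for Grik4, 51.8 to 100 for Gad1 and 35.3 to 349 for the astrocyte marker Slc1a3. A lower sum therefore does not show that each marker of its list was lower. Summed microglial markers were 31.4 to 40.9 in TBI and 42.7 to 120 in sham at 4 h, and 82.7 to 104 in TBI and 27.7 to 53.1 in sham at 24 h, so that their order turned between the times. What other cells contributed to the clathrin genes was not tested. The array headers place the arrays in 3 slide runs, and reading these as batches is an assumption. Both sham pools and TBI replicate 1 of 4 h were in the first run, TBI replicate 2 of 4 h was in the second with the drug groups of 4 h, and the drug groups of 24 h made up the third, so that drug and run cannot be told apart at 24 h. On this scale the median log2 change over all probes was 0.33 for TBI against sham, -0.40 for MT against TBI and -0.28 for CB against TBI at 4 h. Quantile normalization brought these to 0.029, -0.0078 and 0.012, so each change below is also read against the median of all probes. Fewer cells expressing a gene and less RNA per cell cannot be told apart in such pools.

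Among the coat genes, the light chain Clta and the heavy chain Cltc stood higher in TBI at 4 h than in either the sham or the CB group, whereas the other light chain, Cltb, stood lower. Clta was at 26.7 and 32.4 in the sham pools of 4 h and at 54.0 and 67.0 in the TBI pools. It was at 26.3 and 30.8 with CB and at 13.4 and 38.3 with MT. Both TBI pools thus lay above all 6 other pools of 4 h, and the MT pools lay on either side of the sham and CB pools. The share of all probes with TBI above every other pool of 4 h was not counted. At 24 h the order was lost, with Clta at 8.04 and 26.7 in sham, 10.5 and 19.1 in TBI, 11.6 and 58.8 with CB and 3.76 and 21.2 with MT. Each of the 4 groups overlapped every other at that time.

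The first probe of Cltc followed Clta. Its level was 58.9 and 69.0 in sham, 108 and 169 in TBI, 75.8 and 82.5 with CB and 29.0 and 97.2 with MT at 4 h. Here too the TBI pools were the highest of the time. At 24 h Cltc was at 18.2 and 67.1 in sham, 26.6 and 32.1 in TBI, 29.3 and 99.4 with CB and 6.76 and 77.5 with MT, and in the lowest of these pools 1 array was left out for an irregular spot. A second Cltc probe also had its highest levels of 4 h in TBI, with 3.22 and 3.26 in sham, 6.23 and 7.31 in TBI, 3.54 and 3.72 with CB and 1.99 and 5.58 with MT. Both probes therefore gave TBI pools above every other pool of 4 h. Probes of 1 gene share its transcripts and are not replicates.

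Cltb varied least of the kept probes over the 16 pools, between 46.8 and 127. At 4 h it was at 101 and 127 in sham, 68.3 and 71.9 in TBI, 92.1 and 94.6 with CB and 66.5 and 73.9 with MT. The TBI pools were below both sham and both CB pools and overlapped the MT pools. At 24 h Cltb was at 87.1 and 107 in sham, 92.4 and 124 in TBI, 46.8 and 121 with CB and 53.0 and 75.0 with MT. Only the MT pools lay below both TBI pools at that time.

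**Figure D1:**
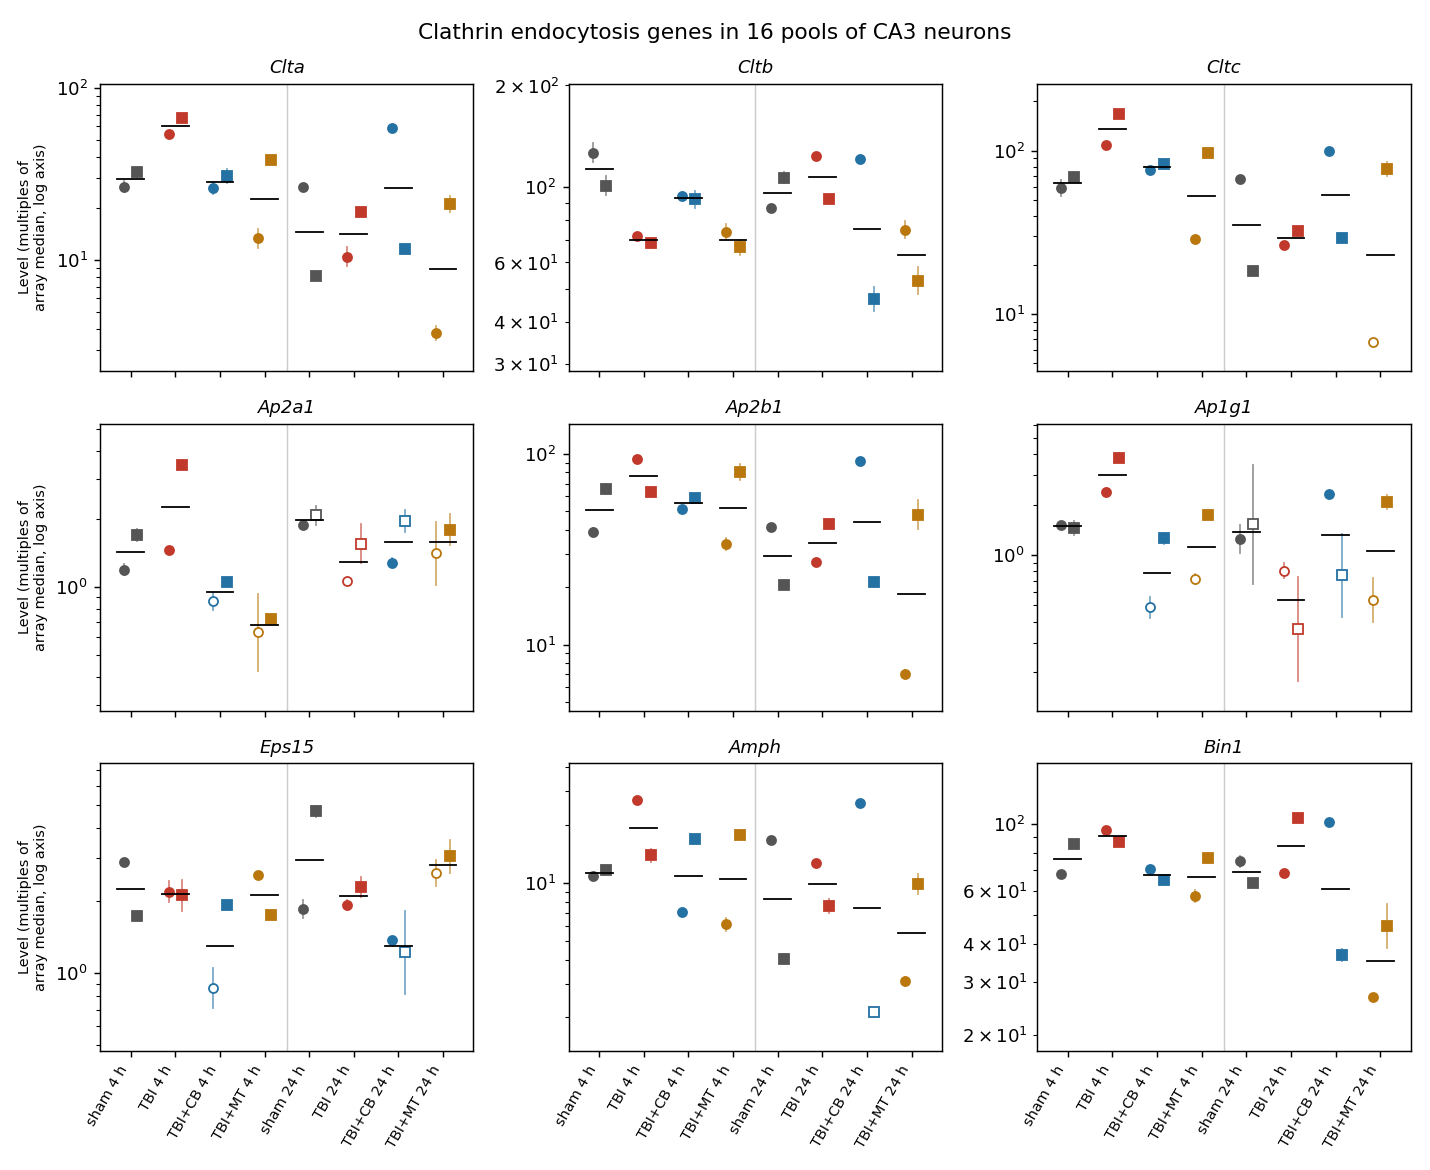
Level of each of the 9 genes with a kept probe in multiples of the array median (log axis, a different range per gene) for the 8 groups. Circles are replicate 1 and squares replicate 2, thin lines join the duplicate arrays, open symbols are pools with fewer than 2 arrays above background and bars are geometric means. The TBI pools of 4 h are the highest of the time for Clta (54.0 and 67.0) and Cltc (108 and 169), and the pools of most 24 h groups stand far apart.

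Of the adaptor genes, Ap2a1 and Ap1g1 were dim and lower with both drugs than in TBI at 4 h, while Ap2b1 was bright and its groups overlapped more. Ap2a1, for the alpha subunit of AP-2, was at 1.20 and 1.70 in sham, 1.46 and 3.48 in TBI, 0.866 and 1.05 with CB and 0.631 and 0.725 with MT at 4 h. The drug-treated pools lay below all sham and TBI pools. The probe was above background on 4 arrays each of sham and TBI and on 2 each of the drug groups, where replicate 1 of CB and of MT had none, so the values of those pools have no order between them. At 24 h Ap2a1 was at 1.88 and 2.08 in sham, 1.07 and 1.56 in TBI, 1.28 and 1.96 with CB and 1.41 and 1.79 with MT, and between 1 and 3 arrays of a group were above background. Its other probe was above background on 1 of 32 arrays.

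Ap1g1, for the gamma subunit of AP-1, was at 1.45 and 1.51 in sham, 2.37 and 3.82 in TBI, 0.487 and 1.26 with CB and 0.716 and 1.74 with MT at 4 h. The TBI pools were again above every other pool of the time. This probe too was above background on 4 arrays each of sham and TBI and on 2 each of the drug groups, with none in replicate 1 of either drug. At 24 h the gene was not above background on any TBI array, where its level was 0.362 and 0.805. It was at 1.25 and 1.53 in sham, 0.755 and 2.30 with CB and 0.540 and 2.07 with MT. Against the bound that the background sets in TBI, sham, with 3 of its 4 arrays above background, was at least 1.19-fold higher (adjusted p = 1). In the CB group and in the MT group 2 of 4 arrays were above background, both in the same pool, and no fold is given. Such a bound takes the higher of the probe's own signal and the dimmest signal above background on each TBI array.

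Ap2b1, for the beta subunit of AP-2, was at 39.0 and 65.5 in sham, 62.9 and 94.2 in TBI, 51.8 and 59.1 with CB and 33.7 and 80.4 with MT at 4 h. TBI overlapped sham and MT but not CB. At 24 h it was at 20.5 and 41.3 in sham, 27.0 and 42.8 in TBI, 21.2 and 91.9 with CB and 7.03 and 48.1 with MT, and all groups overlapped. A second Ap2b1 probe was above background on 7 arrays and a second Ap1g1 probe on 10, neither on all arrays of a group.

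Eps15 and Bin1 differed little between sham and TBI, and the 2 probes of Amph did not show the same order of groups. Eps15 was at 1.72 and 2.89 in sham, 2.11 and 2.17 in TBI, 0.866 and 1.92 with CB and 1.74 and 2.55 with MT at 4 h, so that the CB pools alone lay below TBI. At 24 h it was at 1.85 and 4.70 in sham, 1.92 and 2.28 in TBI, 1.22 and 1.37 with CB and 2.60 and 3.06 with MT. The CB pools were below all other pools of 24 h and the MT pools above both TBI pools. The Eps15 probe was above background on 2 of 4 CB arrays at each time. CB replicate 1 of 4 h and CB replicate 2 of 24 h had none, so the low CB values rest in part on undetected spots.

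The brighter Amph probe was at 10.9 and 11.6 in sham, 13.9 and 26.9 in TBI, 7.03 and 16.9 with CB and 6.11 and 17.8 with MT at 4 h. The TBI pools lay above sham and overlapped both drug groups. At 24 h this probe was at 4.04 and 16.7 in sham, 7.57 and 12.8 in TBI, 2.12 and 26.0 with CB and 3.09 and 9.88 with MT. The CB pool at 2.12 was not above background on either array. The dimmer Amph probe was at 2.15 and 2.99 in sham, 1.86 and 3.21 in TBI, 2.85 and 4.04 with CB and 2.24 and 3.93 with MT at 4 h. At 24 h it was at 3.13 and 5.10 in sham, 4.88 and 5.0 in TBI, 1.12 and 1.70 with CB and 1.70 and 3.15 with MT. There both drug groups lay below TBI on the dimmer probe, whereas on the brighter probe the CB pools lay on either side of TBI.

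Bin1 was at 68.3 and 85.4 in sham, 86.9 and 94.9 in TBI, 65.2 and 70.6 with CB and 57.5 and 76.7 with MT at 4 h. The TBI pools were above the pools of all other groups at that time. At 24 h Bin1 was at 63.4 and 74.9 in sham, 68.5 and 104 in TBI, 36.8 and 101 with CB and 26.8 and 45.8 with MT, and the MT pools lay below both TBI and both sham pools. A second Bin1 probe was above background on 9 arrays, with levels of 0.258 to 4.71. The only Dnm1 probe was above background on 1 of 32 arrays, in TBI+MT 24 h replicate 2, with pool levels of 0.112 to 0.932, so these arrays give no measurement of the dynamin gene in any group.

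The comparison of TBI with sham asks what the injury changed. At 4 h, 7 of the 9 genes stood higher in TBI, with a median log2 change of 0.66 against 0.33 over all probes, of which 69.1% were higher. Cltc had a log2 change of 1.08 (SE 1.05), Clta of 1.03 (SE 0.95) and Ap1g1 of 1.02 (SE 0.80), and these 3 were over 2-fold higher, as were 15.9% of all probes. Cltb was at -0.69 (SE 0.51) and Eps15 at -0.058 (SE 0.57). Both TBI pools lay above both sham pools for 5 genes (Clta, Cltc, Ap1g1, Amph and Bin1), as they did for 36.4% of all probes, and below them for Cltb. No gene of the 9 passed the test (limma, adjusted p from 0.936 to 0.991), nor did any probe on the array (0%), and none of the 9 had an unadjusted p under 0.05, against 3.34% of probes. After quantile normalization Clta was at 0.56, Cltc at 0.67, Ap1g1 at 0.77 and Cltb at -1.14, and Bin1 turned from 0.25 to -0.15. The median over the genes was 0.32 without TBI replicate 1 and 0.41 without sham replicate 1. The study itself placed Clta, Eps15 and Amph in a pathway that it built from these arrays. It also listed Clta, Cltc and Ap1g1 among the pathway genes of its comparison of TBI with control. The direction of all these genes here is therefore not independent evidence. The study described the genes of the built pathway as raised by TBI, whereas Eps15 was at -0.058 here.

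The drugs were compared with TBI to ask whether either altered the response to injury. At 4 h all 9 genes stood lower with MT than in TBI, with a median log2 change of -0.89 against -0.40 over all probes, of which 29.6% were higher, and 4 of them (Ap2a1, Ap1g1, Clta and Cltc) were over 2-fold lower, as were 25.1% of probes. The change was -1.74 (SE 0.52) for Ap2a1, -1.43 (SE 0.80) for Ap1g1, -1.41 (SE 0.95) for Clta and -1.35 (SE 1.05) for Cltc, whereas Cltb and Eps15 were at -6e-04 and -0.020. Ap2a1 and Ap1g1 had passed the detection filter through the sham and TBI groups of 4 h alone, which favours a lower value with a drug, and replicate 1 of each drug was not above background. Their differences from TBI are therefore given as a description, with no p, and the same holds for what they add to the counts and the median. The 4 genes above background on all 32 arrays (Clta, Cltb, Ap2b1 and Bin1) had a median of -0.51. Of the other 7 genes none had an unadjusted p under 0.05, against 4.73% of probes, and no probe on the array passed after adjustment (limma, 0%). Both MT pools were below both TBI pools for 5 genes (Clta, Cltc, Ap2a1, Ap1g1 and Bin1), as for 33.6% of probes. That all 9 were lower depended on the scaling: after quantile normalization 5 were lower, the median was -0.34, and Cltb, Ap2b1, Eps15 and Bin1 were above 0. It also depended on single pools, since the median was -0.29 without MT replicate 1, -1.66 without MT replicate 2 and -0.41 without TBI replicate 1. The last value is also the one within the slide run that TBI replicate 2 shares with the drug groups.

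With CB, 8 of the 9 genes stood lower than in TBI at 4 h, and Cltb stood higher, while 36.7% of all probes were higher. The median log2 change was -0.77 against -0.28 over all probes, and -0.45 over the 4 genes above background on every array. Ap1g1 was at -1.94 (SE 0.80), Ap2a1 at -1.24 (SE 0.52) and Clta at -1.08 (SE 0.95), and these 3 were over 2-fold lower, as were 15.9% of probes. Cltb was at 0.41 (SE 0.51). The limit on Ap2a1 and Ap1g1 applies here too. None of the other 7 genes had an unadjusted p under 0.05, against 3.44% of probes, and no gene of the 9 and no probe (limma, 0%) passed after adjustment. The CB pools lay below both TBI pools for 7 genes, with Cltb above and Amph overlapping, and did so for 34.6% of all probes. For Ap2a1, Ap1g1 and Eps15, which are among the 7, CB replicate 1 was not above background. These genes had passed the detection filter through groups other than CB, so what they add to this count and to the median is description only. Under quantile normalization the same 8 genes were lower and the median was -0.42. The median was -0.48 without CB replicate 1 and -1.20 without CB replicate 2. For Ap2a1 the change depended on TBI replicate 2, the highest of its 16 pools: without it the log2 change was -1.11 with MT and -0.62 with CB. Without CB replicate 1, the pool below background, the change of Ap1g1 was -1.26.

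Both drug comparisons share the TBI pools, so their likeness is no separate result. Set against each other at 4 h, MT and CB differed by a median log2 change of -0.089 over the 9 genes and -0.20 over all probes. The largest differences were 0.71 (SE 0.57) for Eps15, for which CB replicate 1 was not above background, and -0.57 (SE 1.05) for Cltc. None had an unadjusted p under 0.05 (3.11% of probes) or passed the adjustment (0% of probes), and with SEs of 0.51 to 1.11 the fit could not tell small differences from none.

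**Figure D2:**
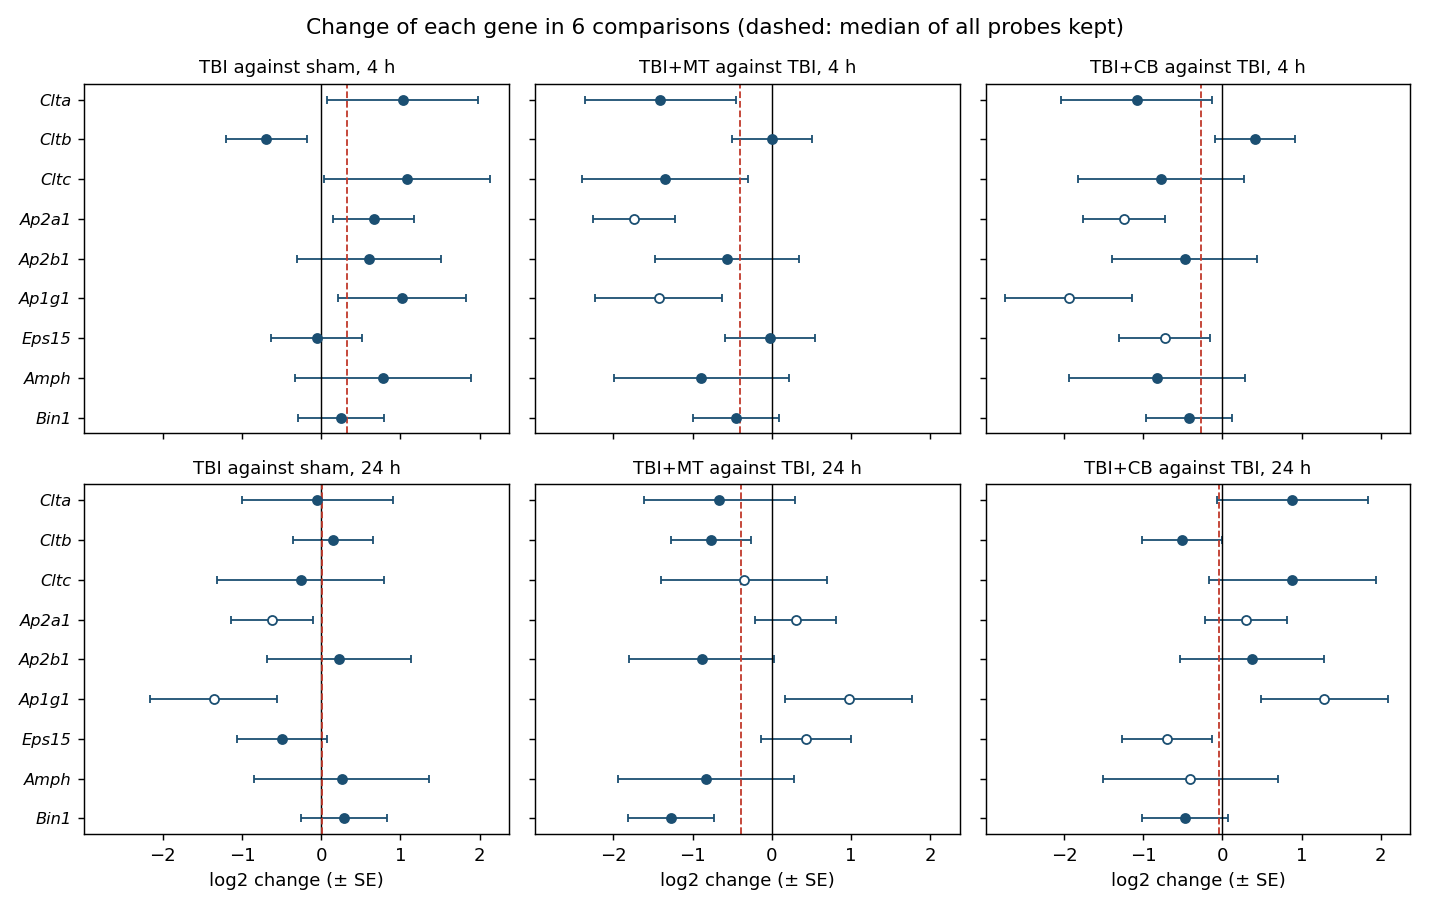
Log2 change (horizontal axis, point and SE from limma) of each gene in TBI against sham and in each drug against TBI, at 4 h above and 24 h below. Open points are comparisons in which a group had fewer than 4 arrays above background, and the dashed line is the median of all probes kept. At 4 h most genes lie beyond it on the side that it takes, and Cltb lies on the other side of the line in each of the 3 panels.

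At 24 h the genes stood on both sides of 0. In TBI against sham the median was -0.052 (0.012 over all probes), with 4 genes higher and 5 lower. None of the genes had an unadjusted p under 0.05 (1.84% of probes) and none passed the adjustment (0% of probes). With MT the median against TBI was -0.66 (-0.39 over all probes), and Bin1 was at -1.27 (SE 0.54, unadjusted p = 0.0376, adjusted p = 0.889), the only one of the 9 with an unadjusted p under 0.05 (5.51% of probes, and 0% after adjustment). Bin1 was at -0.88 (unadjusted p = 0.194) without the dimmest pool, MT replicate 1, and the median over the genes then turned to 0.50. With CB the median was 0.30 (-0.038 over all probes), and it was -0.68 without CB replicate 1 and 1.40 without CB replicate 2. Clta and Cltc had a log2 change of 0.88 each (SE 0.95 and 1.05). None of the 9 had an unadjusted p under 0.05, against 8.22% of probes, and 0% passed after adjustment. The dimmer Amph probe, which does not stand for its gene, was at -1.84 with CB (SE 0.54, adjusted p = 0.592), while the brighter one was at -0.40 (SE 1.11). The duplicate arrays behind the value of the dimmer probe differed widely, with 2.20 and 0.574 in CB replicate 1 and 0.904 and 3.18 in replicate 2, a spread that the SE between pool means does not hold. MT against CB gave a median of -0.43 (-0.29 over all probes) with no gene at an unadjusted p under 0.05 (5.07% of probes) or past the adjustment (0% of probes).

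Whether a change differed between the times was tested as 24 h minus 4 h. The median over the genes was -0.52 for TBI against sham, 0.45 for MT against TBI and 0.85 for CB against TBI, against -0.29, -0.0049 and 0.25 over all probes. None of the 9 had an unadjusted p under 0.05 for TBI against sham, against 2.35% of probes. Ap2a1 for MT and Ap1g1 for CB did, against 4.67% and 7.75% of probes, but both rest on pools that were not above background at 1 or both times, so no size or p is given for them. No probe passed after adjustment in any of the 3 (0%).

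Some genes varied far more between pools than others. Clta, Cltc, Ap2b1 and the brighter Amph probe spanned 17.8-fold, 24.9-fold, 13.4-fold and 12.7-fold over the pools, and Cltb and Bin1 2.71-fold and 3.88-fold. The lowest pool of that Amph probe, TBI+CB 24 h replicate 2, was not above background. The 4 lowest pools of Clta and of Ap2b1 were the 4 pools with the smallest share of probes above background, TBI+MT 24 h replicate 1 (27.4%), TBI+CB 24 h replicate 2 (30.1%), sham 24 h replicate 2 (37.8%) and TBI 24 h replicate 1 (40.0%), and for Cltc and Amph 3 of the 4 were. For Ap2a1 none of the 4 were, and for Cltb, Ap1g1 and Eps15 1 was. However, neither Ap2a1 nor Ap1g1 was above background in TBI+MT replicate 1, TBI+CB replicate 2 or TBI replicate 1 of 24 h. Eps15 was not in TBI+CB replicate 2. The place of these genes in such pools is therefore no measure of RNA level. The pools are shared libraries, so the genes do not give separate evidence. TBI replicate 2 of 4 h had 48.2% of probes above background, rank 9 of 16 from the lowest, and the highest Clta, Cltc, Ap2a1 and Ap1g1 of all pools. The part of detection in the differences between groups was not tested.

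**Figure D3:**
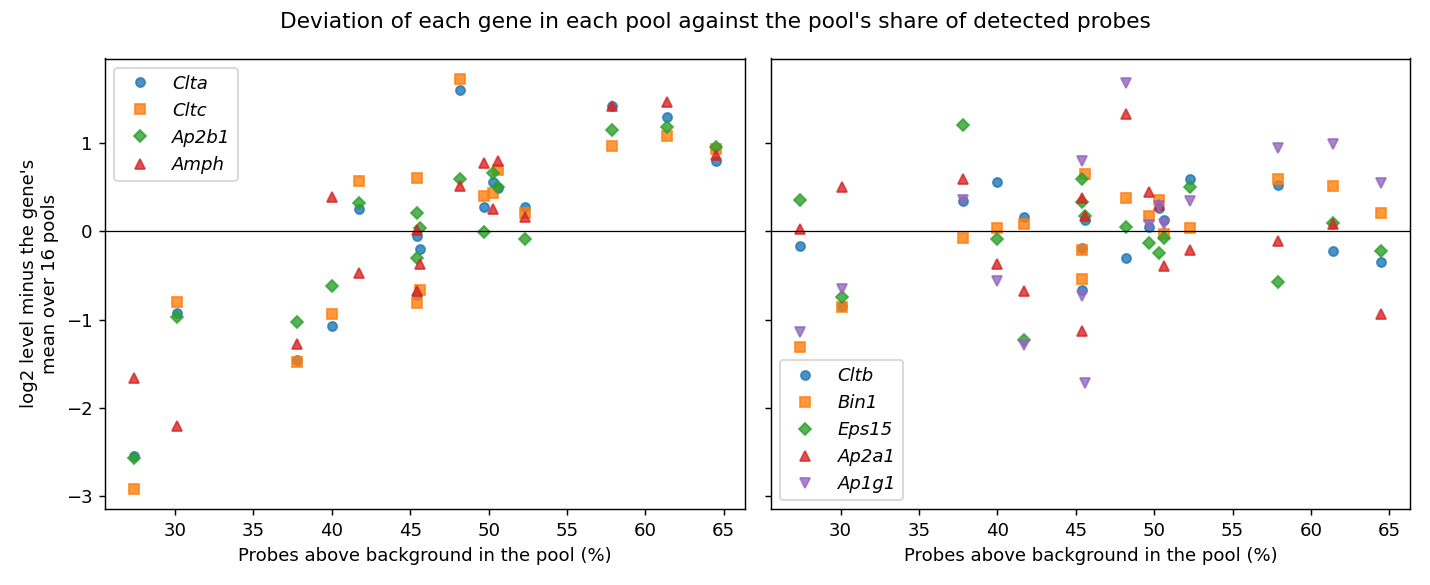
Deviation of each gene from its mean over the 16 pools (log2) against the percent of probes above background in the pool, 1 point per gene and pool. On the left Clta, Cltc, Ap2b1 and Amph are low in the pools with few detected probes, down to -2.92 for Cltc at 27.4%, and on the right Cltb, Bin1, Eps15, Ap2a1 and Ap1g1 range between -1.72 and 1.68. Eps15, Ap2a1 and Ap1g1 were not above background in some of these pools.

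Likeness was measured as the root mean square difference of the centred log2 levels over 16 pools. The closest pairs were Clta with Cltc (0.283), Clta with Ap2b1 (0.358) and Cltc with Ap2b1 (0.440), so the heavy chain, 1 light chain and 1 AP-2 subunit formed the tightest group. Clta and Cltb, the 2 light chains, were 1.14 apart, and Ap2a1 and Ap2b1, both AP-2 subunits, 1.15 apart. Among 8196 other named genes, the nearest to Clta was Cul3 (0.174), to Cltc Eif3a (0.10), to Ap2b1 Ldha (0.201), to Cltb Lmtk3 (0.171) and to Bin1 the pseudogene Rab1b-ps1 (0.138). Dimmer genes had more distant neighbours, with Hccs at 0.366 for Eps15, Lztr1 at 0.376 for Amph, Traf3ip2 at 0.426 for Ap2a1 and Etv1 at 0.474 for Ap1g1. No member had another member as its nearest gene.

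Agreement within a group differed between groups. All 4 arrays were within 2-fold for 11 of the 11 kept probes in sham, 9 in TBI, 8 with CB and 4 with MT at 4 h. At 24 h this held for 4 in sham, 7 in TBI, 1 with CB and 2 with MT. Over all probes kept the shares were 77.6, 59.6, 74.6 and 51.5% at 4 h and 49.2, 74.6, 31.0 and 22.1% at 24 h. Ap2a1 was the probe within 2-fold with CB at 24 h, and Cltb and Eps15 were those with MT. Ap2a1 was above background on 2 of these 4 CB arrays and Eps15 on 3 of these 4 MT arrays, so their agreement includes undetected spots.

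Other genes of the route were taken from a list of 69 further coat, adaptor, membrane-bending, uncoating, endosome and cargo receptor genes, of which 63 had a probe and 48 a kept one. None of the 48 passed after adjustment in any comparison. At 4 h, 34 stood higher in TBI than in sham (median log2 change 0.33), 38 lower with MT than in TBI (median -0.54) and 32 lower with CB (median -0.31), against 0.33, -0.40 and -0.28 over all probes. Of all probes, 69.1, 29.6 and 36.7% were higher in these comparisons. At an unadjusted p under 0.05 there were 0, 0 and 1 of 48, respectively. The 10 other coat and adaptor subunits had medians of 0.54, -0.70 and -0.54 in these comparisons, and 8 stood higher in TBI, 10 lower with MT and 8 lower with CB. The 5 uncoating genes had medians of 0.31, 0.058 and -0.0018. At 24 h, 25 of the 48 stood higher in TBI than in sham (median 0.040), 41 lower with MT (median -0.44) and 22 lower with CB (median 0.066). Over all probes the medians were 0.012, -0.39 and -0.038, and 51, 26 and 48.7% were higher.

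By smallest unadjusted p in each comparison, the early-pit protein gene Fcho2 led at 4 h in TBI against sham and in CB against TBI, and Inpp5f in MT against TBI. It was at 1.07 and 2.14 in sham, 2.24 and 19.4 in TBI and 2.74 and 0.342 with CB. Its log2 change was 2.12 in TBI against sham (SE 1.01, adjusted p = 0.936) and -2.77 with CB against TBI (SE 1.01, adjusted p = 0.957). TBI replicate 2 was the highest of these pools, and with CB 2 of 4 arrays were above background. Pacsin1, for a neuronal membrane-bending protein, was at 121 and 34.2 in sham and 33.5 and 6.08 in TBI (log2 change -2.17, SE 1.04, adjusted p = 0.936). With MT the phosphatase gene Inpp5f was at 1.48 and 3.28 against 4.80 and 5.45 in TBI, and the adaptor-binding Necap2 at 2.85 and 3.04 against 5.0 and 5.82 (adjusted p = 0.736 for each). The AP-3 subunit gene Ap3m1 was at 10.6 and 7.18 with CB against 17.6 and 26.8 in TBI (log2 change -1.32, SE 0.67, adjusted p = 0.957).

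At 24 h the transferrin receptor gene Tfrc, a classical cargo of the route, was below background on all TBI arrays and at least 2.27-fold higher in sham, where 3 of 4 arrays were above background (adjusted p = 1), and the AP-3 subunit gene Ap3s1 was at 2.87 and 3.15 in TBI and 5.33 and 5.07 in sham (adjusted p = 1). Arrb1, for beta-arrestin 1, which links receptors to clathrin, was not above background with MT at 24 h and at least 2.08-fold higher in TBI, where 3 of 4 arrays were (adjusted p = 0.754). It was at 0.613 and 0.934 with CB against 1.49 and 5.02 in TBI (adjusted p = 0.592). Hip1, for a protein that joins clathrin to actin, was at 3.51 and 2.12 with MT against 7.38 and 10.4 in TBI (log2 change -1.68, SE 0.59, adjusted p = 0.804). The endosomal Ehd3 was at 18.5 and 18.3 with CB against 44.9 and 93.1 in TBI (log2 change -1.81, SE 0.65, adjusted p = 0.592).

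**Figure D4:**
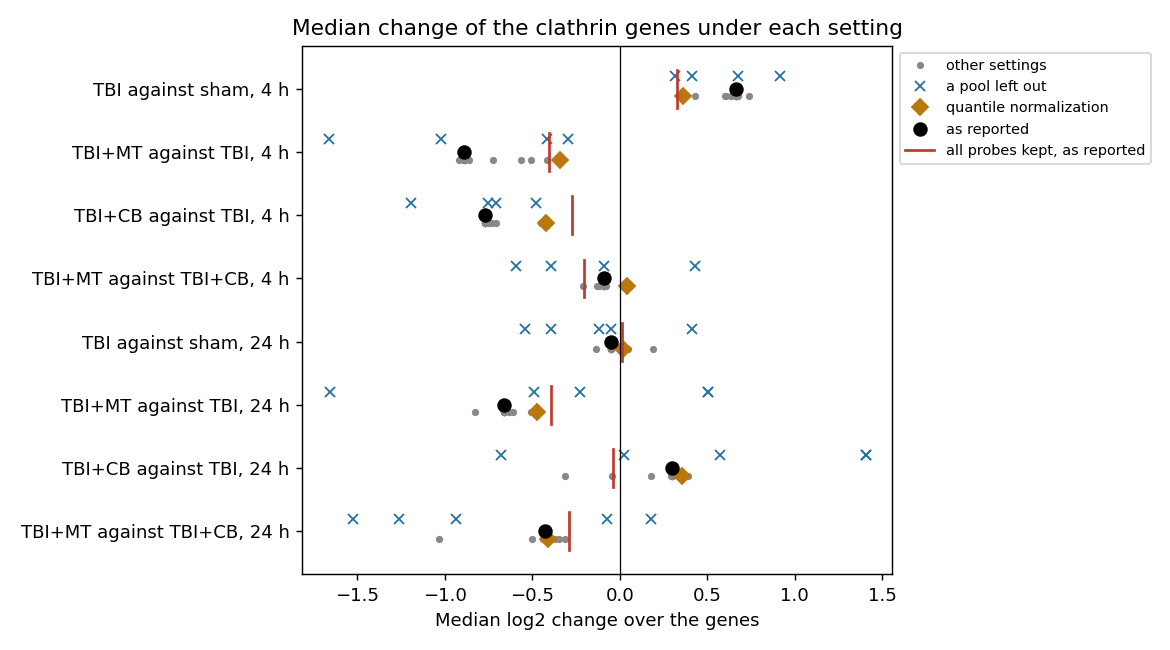
Median log2 change over the clathrin genes in each of the 8 comparisons (horizontal axis) as reported, after quantile normalization, with pools left out and under the other settings, beside the median of all probes kept. At 4 h the median of TBI against sham stays above 0 (0.32 to 0.91) and those of both drugs against TBI below 0, while at 24 h leaving out a pool moves it across 0 in each comparison.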

How the data were processed

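RNA of laser-captured CA3 neurons from 16 pools was measured on 32 CodeLink rat arrays. Per the methods, the RNA went through linear amplification before hybridization, and pools held neurons of several rats. Per the file headers, the deposited intensity values come from CodeLink Expression Analysis 4.1.0.29054, and values below 0 occur, so they seem to be net of local background. The processed values that the authors deposited are the ratio of each intensity to the array median times a factor of 1.006 to 1.029, with values not under 0.01, and served as an alternative.

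Each intensity was divided by the median of its array, values under 0.1 were raised to 0.1, and log2 was taken. Spots with an irregular or masked flag were dropped, duplicate arrays were averaged, and for a gene with several kept probes that of the highest mean stood for it. Of 33849 probes, 16878 carried 1 gene symbol in the platform annotation, which is old, 182 several and 16789 none. A model over all 8 groups was fitted with limma 3.58.1 (R 4.3.3), which had 8 degrees of freedom from the pools and 3.88 from the prior. P-values were adjusted by Benjamini-Hochberg over all kept probes of a comparison at a threshold of 0.05. With 2 pools against 2, a permutation test cannot go below p = 0.333 and was not used. The fit was checked on simulated data. Figures were drawn in matplotlib.

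The number of arrays and pools limits the precision. The genes, the wider list, the marker lists and the tests were chosen with earlier results of these data known. From the wider list, the 2 genes with the smallest p in TBI against sham and in each drug against TBI are named. Groups follow the sample labels. The labels and the methods differ on the time of treatment before injury and the number of rats per pool. Alternatives covered normalization, floor, filters, spots, duplicate arrays, groups fitted, variance trend, blocks and left-out pools. Leaving out both dim 24 h pools and crossing pool numbers were added after seeing the data.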

Additional observations from a re-analysis of the deposited data

How the results depend on the processing

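Under 33 alternative settings no member probe was called in any comparison. As reported, 8 single-probe changes had an unadjusted p under 0.05 (limma), over the 11 kept probes in all comparisons. Of all probes, 1.84 to 8.22% did, depending on the comparison, so the count is not read as a result about these genes. Those of Ap2a1 and Ap1g1 are among the 8. These genes passed the filter through sham and TBI of 4 h alone, so that their direction held is no support. The changes of Bin1 with MT at 24 h and of the dimmer Amph probe with CB (24 h, and 24 h minus 4 h) also kept their direction. With the replicate block (pool number as a block), 0 member probes were called. The numbers do not pair the pools: correlations of same-numbered deviations ran from -0.347 to 0.287. A crossed replicate block, with the numbers of TBI+CB at 24 h exchanged, also called 0. The median change of the genes was taken to have moved if it shifted by more than 0.682, the SD between pools. With probes required above background on all 32 arrays, which leaves 4 genes, the 24 h minus 4 h median of MT against TBI was -0.54 in place of 0.45. The 24 h minus 4 h difference of Ap2a1 for MT, not above background in several pools, was smaller with array a alone, and no size is given. Leaving out both dim 24 h pools (TBI+CB replicate 2 and TBI+MT replicate 1) gave medians at 24 h of 0.50 for MT against TBI and 1.40 for CB against TBI, and 1.91 for the 24 h minus 4 h median of CB. Leaving out single pools gave -1.66 to -0.29 for MT against TBI at 4 h, and at 24 h -1.66 to 0.50 for MT against TBI, -0.68 to 1.40 for CB against TBI and -1.53 to 0.18 for MT against CB. For 24 h minus 4 h these ranges were -1.21 to -0.22 for TBI against sham, -0.51 to 1.07 for MT and -0.051 to 1.91 for CB. The slide run splits a compared group only at 4 h, and as a block it gave medians of 0.68 for TBI against sham, -0.41 for MT against TBI and -0.71 for CB against TBI. The first equals the median without TBI replicate 2, and the others equal those without TBI replicate 1. Each thus rests on 1 TBI pool, and the block is no separate adjustment. Over all probes, where none was called as reported, some alternatives called probes. Among them was the slide-run block for MT against TBI at 4 h, which gave the same result as leaving out TBI replicate 1. The authors' processed values gave 30 for CB against TBI and 17 for MT against TBI at 24 h, none of them a member. The cause of these shifts was not tested.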
